A study of Mus musculus with 12 samples.

Results

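The npBAF to nBAF subunit switch was examined over 10 genes in differentiating mouse ANS cells. The genes were taken by name from the chromatin literature, with earlier results of these data known. All were found by symbol in both kinds of deposited table, 10 of the 22609 genes in the count files and of the 34993 identifiers of the FPKM table. They comprise 4 subunits of the progenitor complex (Actl6a, Phf10, Dpf2 and Ss18), 4 of the neuronal complex (Actl6b, Dpf1, Dpf3 and Ss18l1) and the 2 alternative ATPases (Smarca2 and Smarca4). Adherent neural stem (ANS) cells are cultured progenitors, here from E14.5 mouse brain, that grow attached to the dish and can be driven towards GABAergic neurons by changes of medium. The 12 RNAseq libraries are all of untreated, normal cells and fall into 4 time points. At T0 (3 libraries) the cells proliferated in growth medium with N2, EGF and FGF2. T1 (3 libraries) was taken 2 days after the change to medium D1, which holds B27 and less of both growth factors, and T2 (4 libraries) 2 days after the change to medium B on laminin, with BDNF and FGF-2 but no EGF. T3 (2 libraries, numbered 1 and 4) was taken 10 days after the change to medium B, when the labels call the cells GAD+. The paper's Results text instead counts the 10 days from T2 on, while its supplement gives the same time as the labels. The time in medium B at T3 is therefore uncertain by the length of the T2 step. These are cultures of one stem cell system under defined media, not brain tissue. The submitters call the samples of a time point biological replicates. Whether these came from separate derivations of the cells is not given in the sources used here, and the p-values measure the spread between these samples.

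BAF (mammalian SWI/SNF) complexes use the energy of ATP to move nucleosomes, around one of the mutually exclusive ATPases BRG1 (Smarca4) and BRM (Smarca2). When neural progenitors leave the cell cycle, some subunits of the progenitor complex (npBAF) are exchanged for paralogs to give the neuronal complex (nBAF). Known exchanges are those of the actin-related subunit ACTL6A for ACTL6B, of the double PHD finger subunits PHF10 and DPF2 for DPF1 and DPF3, and of SS18 for SS18L1 (also called CREST), a calcium-responsive factor that acts in dendrite growth.

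Library sizes ranged from 8910724 to 16631614 counts on genes (median 12601169). Markers moved with time. The 8 proliferation genes summed to between 1805 and 2923 CPM (read counts normalised to the TMM library size) at T0. They summed to 166 to 300 CPM at T1, 202 to 382 CPM at T2 and 578 to 1027 CPM at T3, below every T0 library but higher again at T3. From T2 to T3 their median log2 fold change was 1.55, with 0 of the 8 called by edgeR. The 8 neuron markers summed to between 894 and 965 CPM at T0 and to between 1710 and 2743 CPM later, with Stmn2 alone at 3 or fewer counts in every library. The 5 neural progenitor markers summed to 4923 to 7397 CPM over the 12 libraries, but not all of them held their level. Hes5, a Notch target, was lower by edgeR at T1 (log2 fold change -1.75, adjusted p = 0.0115, lost without T1 replicate 1 or 2) and at T2 (-1.81, adjusted p = 0.00193), and the filament gene Vim was lower at T2 (-0.57, adjusted p = 0.00666). The 8 oligodendrocyte lineage markers summed to between 3157 and 3624 CPM at T0 and to between 4978 and 5973 CPM at T3. Their members went both ways. Pdgfra was called higher at T1, Pdgfra, Olig1 and Mog at T2 and none at T3, while Sox10 was below T0 in every later library. Sox10 had too few counts to be tested at T1 and T2, and it was not called at T3 (edgeR adjusted p = 0.105). The 6 astrocyte markers summed to 768 to 2050 CPM at T0 and to 1306 to 1879 CPM later. Their only call against T0 was Aldh1l1, lower at T2 with overlapping groups (log2 fold change -1.11, edgeR adjusted p = 0.0384). This call was lost without T0 replicate 1 or 2 or T2 replicate 1, 2 or 3 (adjusted p from 0.0794 to 0.114). From T2 to T3 Gfap was called lower (-2.12, edgeR adjusted p = 0.0487). The 5 microglia markers were at 3 or fewer counts in every library. In bulk RNA a change in the mix of cells and a change of RNA per cell cannot be told apart. One library stood apart. T0 replicate 3 differed from T0 replicates 1 and 2 with a chi-square per gene of 101 and 105, against 3.28 between replicates 1 and 2 and 5.34 to 34.1 between replicates of the other time points. It held the highest proliferation sum of the T0 libraries (2923 CPM, against 1805 and 1899), the highest progenitor sum (7397 CPM, against 5847 and 5268) and the lowest sum of the 6 astrocyte markers (768 CPM, against 1982 and 2050). Over the 12 libraries it also had the lowest share of uniquely aligned reads on no gene (13.3 percent, against 19.6 and 19.9 in the other T0 libraries). Its share of alignments that were not unique was the highest (39.0 percent, against 34.0 and 34.6), and its TMM factor was the lowest (0.931). The part of these differences in the values of the members was not tested. Values of the members, and counts of calls, are therefore also given without T0 replicate 3.

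At the level of mRNA only part of the exchange was called. Of the 4 progenitor subunits Actl6a alone fell, and of the 3 neuronal subunits that could be tested Ss18l1 alone rose, while Dpf2, a progenitor subunit by the list used here, rose, and Actl6b, close to the limit of detection, could not be tested. The later time points were each compared with T0 by the quasi-likelihood test of edgeR, run on all genes that passed a filter on low counts, and a gene was called at a Benjamini-Hochberg adjusted p under 0.05. The 3 comparisons share the T0 libraries. Of the 10 members, 9 passed the filter and Actl6b did not. At T1, 4 of the 9 passed the test, Dpf2, Ss18l1 and Smarca2 higher and Actl6a lower, where 31.9 percent of all genes tested passed. At T2, 5 of the 9 passed, the same 4 and Smarca4 lower, where 43.3 percent of all genes passed. At T3, with 2 libraries, edgeR called 0 of the 9, where 4.72 percent of all genes were called. At an unadjusted p under 0.05 there were 2 members (Ss18l1 and Smarca2), and DESeq2 called 1 (Smarca2, higher). With only 9 genes these shares are near the background, and the number of calls is no result about the members. The median log2 fold change of the 9 tested members was -0.15, -0.16 and -0.02 at T1, T2 and T3, against -0.01, 0.00 and -0.01 over all genes tested. The CPM of the 2 groups did not overlap for 7 of the 9 tested members at T1 (56.3 percent of all genes tested), for 6 at T2 (54.2 percent) and for 5 at T3 (50 percent). Without T0 replicate 3 the calls were again 4, 5 and 0, where 50.1, 52.1 and 18.4 percent of all genes were called. At T1 no member passed when T1 replicate 1, 2 or 3 was left out, and at T2 there were 3 calls without T0 replicate 2 or without T2 replicate 1, 3 or 4.

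**Figure D1:**
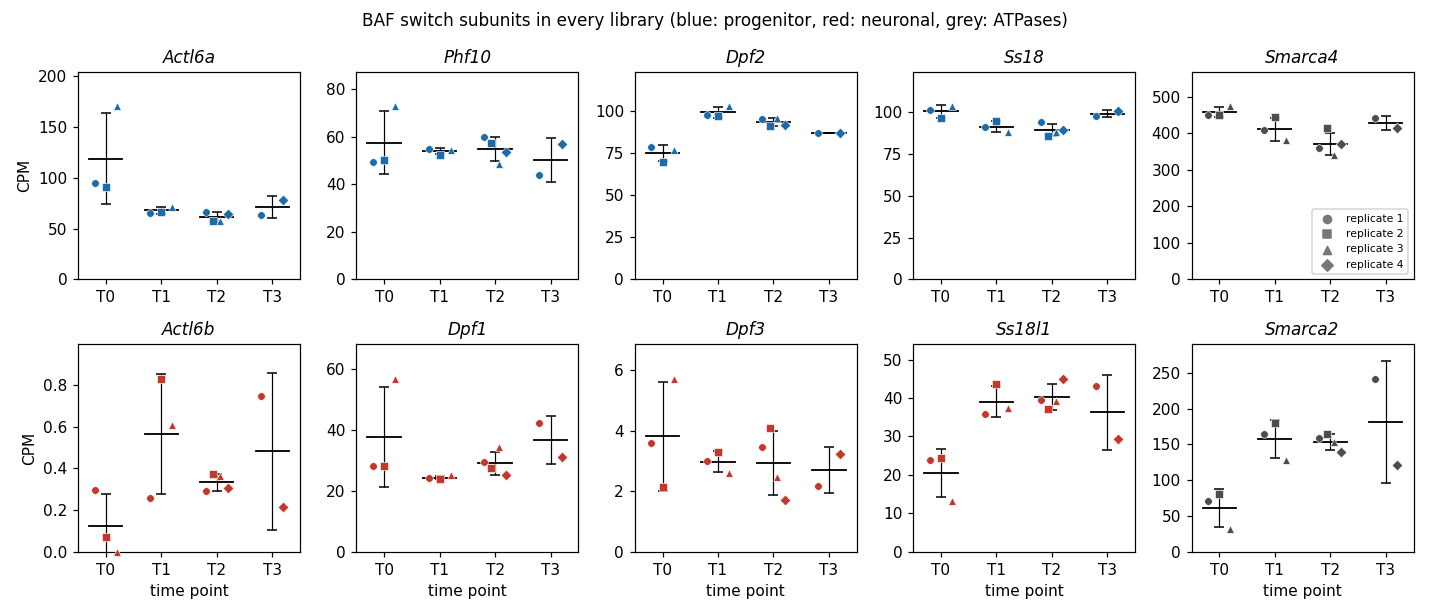
CPM of the 10 members (vertical axes, each from 0) at T0, T1, T2 and T3 (horizontal axes), one point per library, with the marker shape giving the replicate number; horizontal lines are means and bars are ± SD (n = 3, 3, 4 and 2). Actl6a lies lower, and Ss18l1, Smarca2 and Dpf2 higher, in every later library than in any T0 library, and T0 replicate 3 (triangle) lies apart from the other T0 libraries for Actl6a, Phf10, Dpf1, Dpf3, Ss18l1 and Smarca2.

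**Figure D2:**
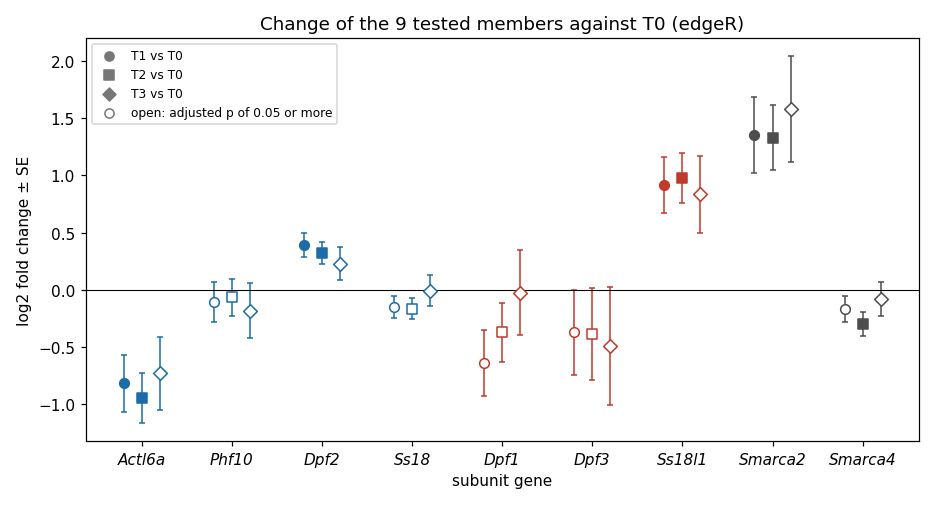
Log2 fold change against T0 (vertical axis, ± SE, edgeR) of the 9 members tested (horizontal axis), with circles for T1, squares for T2 and diamonds for T3, in blue for progenitor subunits, red for neuronal subunits and grey for ATPases. Filled symbols passed the adjusted p of 0.05: Actl6a, Dpf2, Ss18l1 and Smarca2 at T1 and T2, and Smarca4 at T2; no symbol is filled at T3.

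Actl6a, the actin-related subunit of the progenitor complex, was the only member of the switch pairs that fell. Its level was 94.5, 91.3 and 170 CPM in the T0 libraries, 65.8, 66.5 and 71.5 CPM at T1, 66.4, 57.6, 57.6 and 64.2 CPM at T2, and 63.4 and 78.5 CPM at T3. Every later library was below every T0 library. Actl6a fell by 0.81 ± 0.25 (SE) on the log2 scale at T1 (edgeR adjusted p = 0.0436) and by 0.94 ± 0.21 at T2 (adjusted p = 0.00854), which is 1.76-fold and 1.92-fold lower. At T3 the log2 fold change was -0.73 ± 0.32 (adjusted p = 0.216). T0 replicate 3 held 1.83 times the mean Actl6a CPM of T0 replicates 1 and 2 and so set much of the size. Without it the log2 fold changes were -0.46 at T1 (adjusted p = 0.00168), -0.59 at T2 (adjusted p = 0.000390) and -0.38 at T3 (adjusted p = 0.113). The proliferation markers were also highest in T0 replicate 3 and lower at every later time point, and their part in the Actl6a values was not tested.

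The Actl6a gene lies on chromosome 3, plus strand, between 32607468 and 32625890 (NCBIM37, the assembly that UCSC names mm9). Of its 2764 exon bases, 447 overlap exons of Mrpl47 on the opposite strand, so without the strand setting, which is not given in the sources used here, reads from that stretch cannot be told apart. Actl6a mRNA is a known target of the neuronal miRNAs miR-9* (miR-9-3p) and miR-124, whose sites in its 3′UTR are needed for its loss in neurons. The mature miR-9-3p (RefSeq, GRCm38.p6, 22 nt) is shown to place these sites, with the seed, bases 2 to 8, in capitals.
mmu-miR-9-3p: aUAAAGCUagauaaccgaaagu
The longest 3′UTR among its coding transcripts, 366 bases in exon 14 of 14, holds one match to the whole seed (AGCTTTA) and one further match to 6 of its bases (GCTTTA). Each is shown within 30 bases with the match in capitals.
Actl6a 3′UTR from base 38, chr3:32625545-32625574, plus strand: gtcacctcaacgtctgtAGCTTTAgtacac
Actl6a 3′UTR from base 127, chr3:32625633-32625662, plus strand: ccacttaaattttttaagGCTTTAactggc
The search was on the transcript strand only, the 6-base match lies within every 7-base match, and the base numbers give where the capitals start. Of the longest 3′UTRs of 19915 genes, 9.83 percent hold the 7-base match and 25.6 percent the 6-base match. Among the 10 members Smarca2, whose mRNA rose, is the only other gene with the 7-base match. The matches are a description of the sequence.

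Actl6b, the neuron-specific paralog, was at the limit of detection at every time point. It had 4, 1 and 0 counts in the T0 libraries, 3, 11 and 10 at T1, 3, 4, 4 and 5 at T2, and 9 and 2 at T3. Highest at 11 counts, it did not pass the filter on low counts, and the groups overlapped. Summed over the libraries of a time point, this was 5 counts or 0.116 CPM (95% exact Poisson interval 0.0376 to 0.270) at T0 and 24 counts or 0.572 CPM (0.366 to 0.850) at T1. It was 16 counts or 0.336 CPM (0.192 to 0.546) at T2 and 11 counts or 0.532 CPM (0.265 to 0.951) at T3. These intervals cover counting error only. The T1 interval lay above that of T0, and those of T2 and T3 overlapped it. In the edgeR fit without the filter the log2 fold change of Actl6b was 2.16 ± 0.88 at T1 (adjusted p = 0.114), 1.38 ± 0.78 at T2 (adjusted p = 0.218) and 1.97 ± 1.18 at T3 (adjusted p = 0.384). At this depth a rise of Actl6b over the time course could therefore be neither called nor excluded. Its FPKM was at most 0.608 in any library, and Actl6a was at 29.2 and 31.3 FPKM in the T3 libraries.

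Among the double PHD finger subunits, the only calls against T0 were of Dpf2, higher. These subunits read histone tail modifications, and PHF10 and DPF2 are the forms counted here with progenitors. Dpf2 rose, from 78.2, 69.3 and 76.9 CPM at T0 to 97.4, 96.9 and 102 CPM at T1 and to 94.9, 90.8, 95.9 and 91.6 CPM at T2, and it was at 86.9 and 86.8 CPM at T3. In CPM all later libraries were above all T0 libraries, and T0 replicate 3 was close to the other T0 libraries. In FPKM each later group overlapped T0, so the separation was seen in CPM only. The FPKM of Dpf2 was 40.2 to 57.6 at T0, 54.1 to 63.5 at T1, 48.5 to 60.8 at T2 and 35.6 to 46.9 at T3. The log2 fold change of Dpf2 was 0.39 ± 0.10 at T1 (edgeR adjusted p = 0.0288), 0.32 ± 0.09 at T2 (adjusted p = 0.0229) and 0.23 ± 0.14 at T3 (adjusted p = 0.359), rises of 1.31-fold and 1.25-fold at T1 and T2. The call at T1 was lost without any one library other than T0 replicate 3 (adjusted p from 0.0625 to 0.103), and that at T2 without T0 replicate 2 or T2 replicate 1, 3 or 4 (adjusted p from 0.0562 to 0.0928).

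Phf10, the other progenitor form, was at 49.6, 50.4 and 72.8 CPM at T0, 55.0, 52.5 and 54.4 CPM at T1, 60.1, 57.5, 48.6 and 53.5 CPM at T2, and 43.8 and 56.9 CPM at T3. The groups overlapped at each time point. Its log2 fold change was -0.11 ± 0.17 at T1 (edgeR adjusted p = 0.657), -0.06 ± 0.16 at T2 (adjusted p = 0.765) and -0.18 ± 0.24 at T3 (adjusted p = 0.669), and without T0 replicate 3 it was 0.10, 0.14 and 0.02. Of its 5010 exon bases, 485 overlap 1600012H06Rik on the opposite strand.

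Dpf1, a neuronal form, was already well expressed in proliferating cells, at 28.2, 28.2 and 56.9 CPM at T0. It was at 24.2, 24.0 and 25.2 CPM at T1, 29.5, 27.5, 34.4 and 25.3 CPM at T2, and 42.2 and 31.2 CPM at T3. T1 lay below T0 in every library, and T2 and T3 overlapped T0. The log2 fold change was -0.64 ± 0.29 at T1 (edgeR adjusted p = 0.129), -0.37 ± 0.26 at T2 (adjusted p = 0.273) and -0.02 ± 0.37 at T3 (adjusted p = 0.978). Without T0 replicate 3, which held 2.02 times the mean of the other T0 libraries, it was -0.22, 0.05 and 0.40, with no call.

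Dpf3, the other neuronal form, was low throughout, with 26 to 81 counts per library. It was at 3.59, 2.14 and 5.72 CPM at T0, 3.00, 3.31 and 2.62 CPM at T1, 3.48, 4.08, 2.47 and 1.72 CPM at T2, and 2.16 and 3.24 CPM at T3. The groups overlapped, and the log2 fold changes of Dpf3, -0.37 ± 0.37, -0.39 ± 0.40 and -0.49 ± 0.51 at T1, T2 and T3, did not pass the test (edgeR adjusted p = 0.471, 0.460 and 0.581). T0 replicate 3 held 2.00 times the mean of the other T0 libraries, and without it the log2 fold changes of Dpf3 were 0.04, 0.01 and -0.08, so the lower values rest on that library.

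In the SS18 pair the neuronal form rose and the progenitor form did not pass the test. Ss18l1 went from 23.9, 24.4 and 13.2 CPM at T0 to 35.9, 43.5 and 37.5 CPM at T1, 39.6, 37.0, 39.2 and 45.0 CPM at T2, and 43.2 and 29.3 CPM at T3. The groups did not overlap at any time point, and T3 replicate 4 was the lowest of the later libraries. The log2 fold change of Ss18l1 was 0.91 ± 0.25 at T1 (edgeR adjusted p = 0.0304) and 0.98 ± 0.22 at T2 (adjusted p = 0.00765), or 1.88-fold and 1.97-fold higher, and 0.83 ± 0.34 at T3 (adjusted p = 0.187). T0 replicate 3 was 1.83-fold lower than the mean of the other T0 libraries. Without it the log2 fold changes were 0.68 at T1 (adjusted p = 0.00104), 0.74 at T2 (adjusted p = 0.000334) and 0.60 at T3 (adjusted p = 0.112).

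Ss18, which is known also as the gene fused in synovial sarcoma, was at 102, 96.5 and 104 CPM at T0, 91.3, 94.8 and 88.0 CPM at T1, 94.4, 86.0, 88.4 and 89.4 CPM at T2, and 97.6 and 101 CPM at T3. T1 and T2 lay just below T0 in every library, and T3 overlapped it. The log2 fold change of Ss18 was -0.15 ± 0.10 at T1 (edgeR adjusted p = 0.270), -0.16 ± 0.09 at T2 (adjusted p = 0.169) and -0.00 ± 0.14 at T3 (adjusted p = 0.987). These were -0.13, -0.14 and 0.01 without T0 replicate 3, with no call.

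Between the ATPases, the gene for BRM rose while that for BRG1 changed little. Smarca2 was at 70.7, 81.1 and 32.0 CPM at T0, 165, 180 and 129 CPM at T1, 158, 165, 153 and 139 CPM at T2, and 242 and 121 CPM at T3. No later library overlapped T0, and the 2 libraries of T3 differed by 1.99-fold. The log2 fold change of Smarca2 was 1.35 ± 0.33 at T1 (edgeR adjusted p = 0.0229) and 1.33 ± 0.28 at T2 (adjusted p = 0.00608), or 2.55-fold and 2.52-fold higher, and 1.58 ± 0.46 at T3 (adjusted p = 0.103). T0 replicate 3 was 2.37-fold lower than the mean of the other T0 libraries, and without it the log2 fold changes were 1.04 (adjusted p = 0.000375), 1.02 (adjusted p = 2.69e-05) and 1.27 (adjusted p = 0.0580). At T1 the call was lost without any one T1 library (adjusted p up to 0.0876). The calls of Actl6a and Ss18l1 at T1 were lost in the same 3 cases, with adjusted p up to 0.138 and 0.111.

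Smarca4, needed for the self-renewal of neural stem cells, was the most abundant member in counts. It was at 449, 451 and 473 CPM at T0, 408, 444 and 381 CPM at T1, 359, 413, 341 and 370 CPM at T2, and 442 and 414 CPM at T3. Later libraries were all below T0, by little. Smarca4 fell by 0.30 ± 0.10 on the log2 scale at T2 (edgeR adjusted p = 0.0472), a call lost without T0 replicate 1 or 2 or T2 replicate 1, 3 or 4 (adjusted p from 0.0898 to 0.117). Its log2 fold change was -0.17 ± 0.11 at T1 (adjusted p = 0.284) and -0.08 ± 0.15 at T3 (adjusted p = 0.758). At T1, T2 and T3 the values without T0 replicate 3 were -0.14, -0.28 (adjusted p = 0.0308) and -0.06.

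Levels can be compared between genes only per length, on the FPKM scale. The order of the T0 means was Smarca4 (62.9 ± 5.8 FPKM, SD, n = 3), Actl6a (57.1 ± 22.8), Dpf2 (50.5 ± 9.2), Phf10 (47.2 ± 16.2), Dpf1 (29.4 ± 15.5), Ss18 (25.2 ± 2.7), Smarca2 (17.1 ± 5.3), Ss18l1 (3.42 ± 0.87), Dpf3 (1.98 ± 1.05) and Actl6b (0.126 ± 0.117). At T0 the ranges of the first 4 overlapped those of their neighbours, as did those of Phf10, Dpf1 and Ss18. At T2 the order of the means was Dpf2 (55.0 ± 5.9 FPKM, SD, n = 4), Smarca4 (46.1 ± 3.8), Phf10 (39.0 ± 2.1), Smarca2 (31.5 ± 1.4), Actl6a (27.5 ± 2.3), Dpf1 (20.6 ± 5.6), Ss18 (20.5 ± 1.3), Ss18l1 (6.19 ± 0.44), Dpf3 (1.41 ± 0.47) and Actl6b (0.281 ± 0.232). The T2 ranges overlapped between Dpf2 and Smarca4, between Smarca2 and Actl6a, between Actl6a and Dpf1, and between Dpf1 and Ss18. In both orders 3 of the 4 neuronal subunits held the last places, with Dpf1 the exception.

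Ratios within a library do not depend on how libraries are scaled to each other. Ss18l1 was at 15.9, 17.2 and 8.55 percent of Ss18 (FPKM) at T0, 26.8, 31.4 and 29.1 percent at T1, 28.2, 28.9, 29.9 and 34.0 percent at T2, and 30.3 and 19.6 percent at T3. The later libraries were all above T0, and Ss18l1 remained the minor form in each. The ratio of Smarca2 to Smarca4 was 32.3, 35.3 and 15.8 percent at T0, 58.4, 61.1 and 60.2 percent at T1, 70.1, 61.2, 76.6 and 66.7 percent at T2, and 72.9 and 53.1 percent at T3, again with no overlap with T0. The sum of Dpf1 and Dpf3 against that of Phf10 and Dpf2 behaved otherwise. It was 24.5, 26.3 and 42.0 percent at T0, 16.7, 17.5 and 19.7 percent at T1, 24.7, 18.5, 33.1 and 18.2 percent at T2, and 35.4 and 28.4 percent at T3, lower at T1 than at T0 in every library and overlapping it at T2 and T3. The ratio of Actl6b to Actl6a was at most 2.28 percent in any library, and it rests on 11 or fewer Actl6b counts. These ratios are a description and were not tested.

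**Figure D3:**
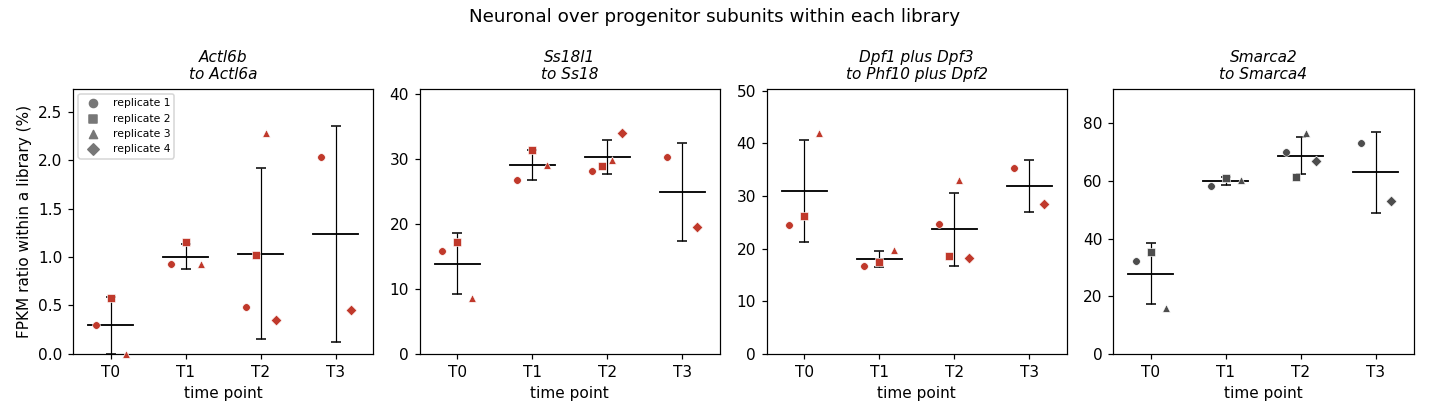
Ratio of the neuronal to the progenitor form within each library, and of Smarca2 to Smarca4, in percent of FPKM (vertical axes, each from 0) at T0 to T3 (horizontal axes); points are libraries with the marker shape giving the replicate number, lines are means and bars ± SD (n = 3, 3, 4 and 2). The ratios of Ss18l1 to Ss18 and of Smarca2 to Smarca4 are higher in every later library than at T0, that of the double PHD finger genes is not, and that of Actl6b to Actl6a stays at or under 2.28 percent.

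After T1 no member was called. From T1 to T2 edgeR called 0 of the 9 members, where 0.63 percent of all genes were called, with log2 fold changes from -0.14 to 0.25. There was 1 member at an unadjusted p under 0.05, and DESeq2 called 0. This member was Dpf1, higher at T2 (log2 fold change 0.25 ± 0.11, edgeR unadjusted p = 0.0474, adjusted p = 0.420), with every T2 library above every T1 library. From T2 to T3 edgeR again called 0 of the 9, where 1.19 percent of all genes were called, with log2 fold changes from -0.14 to 0.34, 0 members at an unadjusted p under 0.05 and 0 calls by DESeq2. The largest rise was again that of Dpf1 (0.34 ± 0.17, edgeR unadjusted p = 0.0735), whose T2 and T3 libraries overlapped.

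The other BAF subunits gave a wider view of the complex. Of 20 genes listed, 19 passed the filter on low counts. Bcl11a did not, with at most 2 counts in any library. At T1, 5 of the 19 passed higher and 0 lower, where 15.1 percent of all genes tested were called higher and 16.8 percent lower. Their median log2 fold change was 0.14. At T2, 5 passed higher and 3 lower, where the shares of all genes were 21.4 and 21.8 percent, with a median of 0.07. At T3, 1 passed higher and 0 lower, where the shares were 3.31 and 1.41 percent, with a median of 0.00. The same 5 genes, Bcl11b, Smarcd3, Bcl7a, Arid1b and Bicral, were called higher at T1 and T2. At T1 the calls of Bcl7a and Bicral were lost without any one T1 library (edgeR adjusted p up to 0.0650 and 0.112) and that of Arid1b without T1 replicate 1 or 2 (up to 0.0561). Without T0 replicate 3, the calls were 9 higher and 2 lower at T1, 7 and 3 at T2, and 3 and 0 at T3.

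Bcl11b, a zinc-finger transcription factor that is a BAF subunit and marks striatal and deep-layer cortical neurons, rose most of these subunits. It was at 4.63, 4.91 and 3.74 CPM at T0, 17.1, 23.7 and 15.5 CPM at T1, 22.6, 26.3, 21.0 and 18.0 CPM at T2, and 20.0 and 17.3 CPM at T3. The groups were far apart, T0 replicate 3 included. Its log2 fold change was 2.07 ± 0.23 at T1 (edgeR adjusted p = 0.00123), 2.31 ± 0.19 at T2 (adjusted p = 0.000102) and 2.09 ± 0.25 at T3 (adjusted p = 0.0203), and the T3 call was lost without any one library other than T0 replicate 3 (adjusted p up to 0.177). Smarcd3, one of 3 alternative paralogs of the same subunit, was at 52.5, 51.3 and 37.6 CPM at T0, 79.0, 87.1 and 91.8 CPM at T1, 90.9, 85.7, 100 and 87.4 CPM at T2, and 91.8 and 91.0 CPM at T3. The log2 fold change of Smarcd3 was 0.86 ± 0.16, 0.95 ± 0.14 and 0.97 ± 0.20 (edgeR adjusted p = 0.00836, 0.00113 and 0.0533), while its paralog Smarcd1 had 0.05 at T1 and -0.06 at T2, neither called. For Smarcd3 the values without T0 replicate 3 were 0.72 at T1 and 0.81 at T2.

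Arid1b, a subunit that excludes its paralog Arid1a from the complex, had log2 fold changes of 0.76 ± 0.16 at T1 and 0.60 ± 0.14 at T2 (edgeR adjusted p = 0.0135 and 0.00951), and Arid1a had 0.15 and -0.01 (adjusted p = 0.324 and 0.965). Bcl7a had 0.77 ± 0.17 and 0.64 ± 0.15 (adjusted p = 0.0157 and 0.0101), and its paralog Bcl7c fell at T2 by 0.61 ± 0.14 (adjusted p = 0.00908). Bicral, a subunit of the non-canonical BAF complex, had 0.60 ± 0.16 and 0.76 ± 0.16 (adjusted p = 0.0295 and 0.00665). Of the core scaffold pair, Smarcc1, the form that predominates in stem cells, fell at T2 by 0.47 ± 0.16 (adjusted p = 0.0419). This call was lost without T2 replicate 1, 3 or 4 (adjusted p from 0.0917 to 0.105), and without T0 replicate 3 the log2 fold change of Smarcc1 was -0.27 (adjusted p = 0.0446). Smarcc2 had log2 fold changes of 0.51 ± 0.19 at T1 and 0.39 ± 0.16 at T2 that did not pass the test (adjusted p = 0.0772 and 0.0771). Pbrm1, a subunit of the PBAF complex to which PHF10 also belongs, fell at T2 by 0.35 ± 0.12 (adjusted p = 0.0434), a call lost without T0 replicate 1 or 2 or T2 replicate 1, 3 or 4 (adjusted p from 0.0523 to 0.108).

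**Figure D4:**
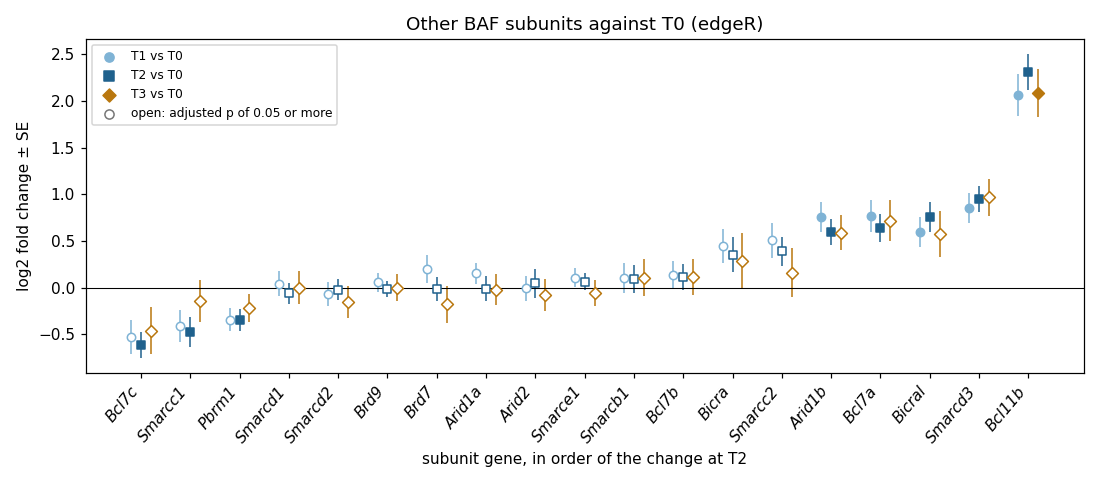
Log2 fold change against T0 (vertical axis, ± SE, edgeR) of the 19 other BAF subunits tested (horizontal axis, in order of the T2 value), with circles for T1, squares for T2 and diamonds for T3. Filled symbols passed the adjusted p of 0.05; Bcl11b stands out at 2.07, 2.31 and 2.09, Bcl7c, Smarcc1 and Pbrm1 are lower at T2, and the symbols between Smarcd1 and Smarcc2 are open.

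Related gene groups were also read. ACTL6A is a subunit of the INO80 and TIP60 remodelling complexes as well. Of 9 genes of the INO80, SRCAP and TIP60 complexes tested, 0 passed higher at any time point by edgeR, and the lower calls were 1 (T1), 3 (T2) and 0 (T3), where 16.8, 21.8 and 1.41 percent of all genes were called lower, with medians of -0.01, -0.12 and -0.14. Ruvbl2, an ATPase shared by these complexes, fell by 1.15 ± 0.26 on the log2 scale at T1 and by 1.25 ± 0.22 at T2 (adjusted p = 0.0166 and 0.00276), and the T1 call was lost without any one T1 library (adjusted p up to 0.0767). Like Actl6a it was highest in T0 replicate 3 (294 CPM, against 164 and 148), and without that library the log2 fold changes were -0.78 and -0.88, both called. Ruvbl1 and Actr8 fell at T2, by 0.81 ± 0.26 and 0.55 ± 0.15 (adjusted p = 0.0360 and 0.0173). The call of Ruvbl1 was lost without any one T2 library (adjusted p up to 0.0838), and without T0 replicate 3 its log2 fold change was -0.39 (adjusted p = 0.0319) and that of Actr8 -0.36. Without T0 replicate 3 the calls were 1 higher and 3 lower at T1 and at T2, and 0 at T3.

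REST, a repressor of neuronal genes in progenitors, is known to hold down the miRNAs that act on Actl6a. Rest itself had 39.6, 47.7 and 32.3 CPM in the T0 libraries and 32.1 and 30.8 CPM in those of T3, and its log2 fold changes of -0.03 ± 0.17, -0.33 ± 0.21 and -0.33 ± 0.22 did not pass the test (edgeR adjusted p = 0.893, 0.228 and 0.391). Of the 9 genes for REST and its corepressors, 1 passed higher and 3 lower at T1, 0 and 4 at T2, and 0 and 1 at T3, where the shares of all genes were 15.1 and 16.8, 21.4 and 21.8, and 3.31 and 1.41 percent, with medians of -0.32, -0.43 and -0.44. Rcor2, a corepressor that binds the demethylase KDM1A in stem cells, was at 152, 148 and 137 CPM at T0, 103, 113 and 135 CPM at T1, 78.5, 72.0, 87.5 and 71.6 CPM at T2, and 84.6 and 84.3 CPM at T3. It fell by 0.91 ± 0.11 on the log2 scale at T2 (adjusted p = 0.000370) and by 0.77 ± 0.14 at T3 (adjusted p = 0.0449), the latter lost without any one library other than T0 replicate 3 (adjusted p up to 0.284). Rcor1, Hdac2 and Sin3a were the genes that fell at T1, by 0.63, 0.60 and 0.37, and they also fell at T2, by 0.78, 0.69 and 0.55. At T1 the calls of Rcor1 and Sin3a were lost without T0 replicate 1 or 2 or any T1 library (adjusted p up to 0.151 and 0.183), and that of Hdac2 without T0 replicate 2 or any T1 library (up to 0.121). Rcor3 was called higher at T1, with 0.57 ± 0.18 (adjusted p = 0.0469), a call lost without any one library other than T0 replicate 3 (adjusted p up to 0.152). Without T0 replicate 3 the calls were 1 higher and 4 lower at T1, 0 and 4 at T2, and 0 and 2 at T3.

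Among 13 ATPases of other SNF2 families, 2 passed higher and 1 lower at T1, 3 and 4 at T2, and 2 and 1 at T3, where the shares of all genes were again 15.1 and 16.8, 21.4 and 21.8, and 3.31 and 1.41 percent, with medians of 0.19, 0.08 and 0.06. Without T0 replicate 3 these were 2 and 4, 3 and 3, and 3 and 1. Chd3, the ATPase that replaces Chd4 in NuRD complexes of differentiating neurons, was at 26.0, 27.0 and 12 CPM at T0, 140, 159 and 109 CPM at T1, 148, 176, 144 and 106 CPM at T2, and 179 and 106 CPM at T3. Its log2 fold change was 2.63 ± 0.33, 2.73 ± 0.31 and 2.73 ± 0.41 at T1, T2 and T3 (edgeR adjusted p = 0.00183, 0.000292 and 0.0304), or 2.34, 2.44 and 2.44 without T0 replicate 3. Chd4 fell at T2 by 0.49 ± 0.11 (adjusted p = 0.00922). Chd5, the third ATPase of this family, had 1.51 ± 0.27 at T1 and 1.99 ± 0.31 at T2 (adjusted p = 0.00782 and 0.00144). Smarca1, an ISWI ATPase, rose from 5, 8 and 0 counts at T0 to 156 and 54 counts at T3, and its log2 fold change was 3.06 ± 0.59 at T2 and 4.90 ± 0.90 at T3 (adjusted p = 0.00400 and 0.0428). Its paralog Smarca5 fell at T2 by 0.36 ± 0.13 (adjusted p = 0.0479), a call lost without T0 replicate 2 or 3 or any one T2 library (adjusted p from 0.0510 to 0.108), and without T0 replicate 3 the log2 fold change of Smarca5 was -0.21. Hells, which acts with DNA replication and methylation, fell by 3.27 ± 0.30, 2.99 ± 0.32 and 1.96 ± 0.38 at T1, T2 and T3 (adjusted p = 0.000686, 0.000247 and 0.0488). The T3 calls of Chd3, Smarca1 and Hells were lost without any one library other than T0 replicate 3 (adjusted p up to 0.232, 0.310 and 0.335).

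The genes whose profile over the 12 libraries was most like that of Actl6a, by the root mean square difference of centred log2 CPM among 11529 genes, were Tbl3 (0.065), Bag2 (0.072) and Uba2 (0.074). Tbl3 had mean levels of 122, 69.0, 66.8 and 75.2 CPM at T0, T1, T2 and T3. For Actl6b the nearest among 11530 genes were Cd274 (0.36), BC020402 (0.36) and Xist (0.37), a far looser likeness that rests on the few Actl6b counts.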

How the data were processed

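RNAseq of 12 libraries of ANS cells was used. The authors made polyA libraries (TruSeq RNA kit v2) and sequenced them on a HiScanSQ. The submitters' processing notes name CASAVA 1.8, Bowtie 0.12.7.0, TopHat2 2.0.6, HTSeq 0.6.0, DESeq2 1.0.0 and mm9. The deposited count files hold raw counts per gene that were not normalized, with 5 further entries that name no gene and were left out. Reads on no gene were 13.3 to 24.1 percent of uniquely aligned reads, and alignments that were not unique 26.0 to 39.0 percent of all entries, so reads that paralogs share were not counted. The longest stretch identical between transcripts of member paralogs was 14 to 26 bases. The authors also deposited FPKM values per gene and library. The FPKM column taken for T3 replicate 4 carries both a 4 and a 2 in its name. The tool behind them, the strandedness used in counting and how long the reads were are not given in the sources used here. FPKM totals differed between libraries, so FPKM was used for levels between genes and ratios within a library, and counts for time.

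For each comparison the counts of the 2 groups compared were filtered with filterByExpr and then normalized by TMM on those libraries. They were tested by the quasi-likelihood test of edgeR 4.0.16 in R 4.3.3. Benjamini-Hochberg adjustment was over all genes tested, with a threshold of 0.05. For CPM the TMM factors were computed over all 12 libraries (0.931 to 1.04). DESeq2 1.42.0, other scalings and filters, a fit of all 12 libraries, a replicate block and leaving out each library were alternatives. The members and gene lists were chosen with earlier results of these data known. Named genes are the members, the genes on the lists and the 3 nearest profiles of Actl6a and Actl6b among genes whose log2 CPM averaged 1 or more. Deviations of T2 and T1 libraries from their group means correlated with r = 0.199, 0.341 and 0.166 for same-numbered libraries. Differently numbered pairs ran from -0.309 to 0.37. The highest was T2 replicate 4, which has no same-numbered T1 library, with T1 replicate 3, so pairing by number is not settled. With the number as a block, on the libraries whose number both groups share, 0 members were called from T1 to T2, as without it. For T1 and T2 against T0 the correlations of same-numbered libraries were -0.152 to 0.121, which does not show pairing.

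The genome (NCBIM37) and GENCODE vM1 gave positions and 3′UTRs. The miRNA miR-124 was not analysed here.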

Additional observations from a re-analysis of the deposited data

How the results depend on the processing

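The libraries are few, and the calls sit near the threshold. The number of members called was 4 at T1, and from 0 to 4 with 1 library left out. At T2 it was 5, and 3 with no filter on low counts, 2 with the replicate block, and from 3 to 5 with 1 library left out. At T3 it was 0, and 1 with DESeq2, 3 with one fit of all 12 libraries, and 0 with any 1 library left out. From T1 to T2 and from T2 to T3 it was 0 under every alternative run. The fit of all libraries called Actl6a lower (adjusted p = 0.0319) and Ss18l1 and Smarca2 higher (adjusted p = 0.0237 and 0.00552) at T3. The block fit kept only replicate numbers that both groups share, so against T0 and T1 it also left out T2 replicate 4. From T2 to T3 it kept replicates 1 and 4. With the block, which pairs libraries by number only, Actl6a (edgeR adjusted p = 0.0520), Dpf2 (0.0976) and Smarca4 (0.147) lost their T2 calls. Without T2 replicate 4 and with no block, Dpf2 (0.0576) and Smarca4 (0.0919) lost them too, and Actl6a (0.0247) did not. At T1 the 4 calls held with the block. For T3 against T0 no paired analysis was possible, because they share 1 replicate number. Of 333 log2 fold changes of members recomputed against T0, 279 kept their direction and side of the threshold, 30 lost and 4 gained a call, and 20 changed direction, all of them uncalled. On libraries numbered 1 and 2 only, these were Phf10 (0.0921 at T1, 0.226 at T2), Dpf3 (0.143, 0.404) and Dpf1 (0.0073 at T2). At T3 they were Ss18 with DESeq2 size factors (0.0026) and, with at least 10 counts in every library, Ss18 (0.0308) and Dpf1 (0.0177). With 1 library left out, Phf10 ranged from -0.204 to 0.0979 at T1, -0.165 to 0.136 at T2 and -0.386 to 0.0187 at T3, Dpf3 from -0.656 to 0.0444 at T1 and -0.676 to 0.00999 at T2, Dpf1 from -0.544 to 0.0466 at T2 and -0.258 to 0.395 at T3, and Ss18 from -0.0347 to 0.0219 at T3. Other listed genes entered only in comparisons where the main fit called them, so none could gain a call. Of their 1047 such values, 916 kept their call, 131 lost it and 0 changed direction. As called genes only, they cannot be set beside the members, which entered called or not. The cause of these changes was not tested. Over all genes, T3 against T0 gave 600 calls, 2023 with DESeq2, 3865 with all 12 libraries in one fit, 1165 without the filter, 257 with at least 10 counts and 0 to 2317 with 1 library left out. T1 against T0 gave 3949 calls, 7462 on libraries numbered 1 and 2, and 1750 to 6290 with 1 library left out, and T2 against T0 gave 5455, and 3091 with the block. From T1 to T2 there were 78 calls, 161 without the filter, 304 with DESeq2, 3 with all 12 libraries and 209 with the block, and from T2 to T3 150, 719, 760, 42 and 13. With 1 library left out these came to as few as 9 and to between 1 and 1347.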
